A study of Mus musculus with 47 samples.

Results

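The genes described here are 10 macrophage and myeloid genes of the leukaemic mouse spleen, out of 18193 genes named on the array: C1qa, C1qb, C1qc and Spic, which mark complement-producing and red-pulp macrophages, and Csf1r, Lyz1, Lyz2, Ctss, Cd68 and Cx3cr1, which are general genes of monocytes and macrophages. They were chosen by name, and each is represented by its brightest probe set that maps to 1 gene. RNA from 47 leukaemic spleens, 1 per mouse, was measured on Affymetrix mouse genome arrays, and the deposited values are log2 RMA values. All mice carried Tg(ACTB-cre)2Mrt, a Cre recombinase driven by the ACTB promoter, together with Gt(ROSA)26Sortm2(sb11)Njen, a Cre-activated Sleeping Beauty transposase. The mobile element was the T2/Onc2 transposon array of line 6113 (TgTn(sb-T2/Onc2)6113Njen) in 21 mice and of line 6070 (TgTn(sb-T2/Onc2)6070Njen) in 26 mice. An insertion in Erg, an ETS transcription factor gene of blood stem cells and megakaryocytes, was labelled in 26 tumours (9 of line 6113 and 17 of line 6070) and absent by label from 21 (12 of line 6113 and 9 of line 6070). The labelled sexes were 25 female and 22 male mice. The age label, whose unit was not given, ran from 49 to 97 (median 74) with an Erg insertion and from 32 to 89 (median 54) without one. Every mouse had undifferentiated myeloid leukaemia at the terminal stage, and no spleen without leukaemia was analysed here, so all values are differences among leukaemic spleens. In whole spleen, RNA of tumour cells and of other cells was measured together, and fewer cells of a type and less RNA per cell cannot be told apart.

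For 24 of the 47 arrays the labelled sex was contradicted by Xist, the X-silencing RNA of female cells. Among these arrays 16 carried the Erg insertion label and 8 lacked it. Xist did not exceed log2 7 in 12 arrays labelled female and exceeded it in 12 labelled male. Groups are therefore called by their labels. The comparisons of the Erg, line, sex and age labels below were repeated on the 23 matching arrays, some of which may match by chance. Correlations over all 47 arrays use no label. Correlations and slopes within a line, an Erg label or a tumour identifier number do, and they were not repeated on the matching arrays. Correlations between whole arrays ran from 0.903 to 0.991, and the difference between the 3′ and 5′ control probe sets, a sign of RNA degradation, from 0.65 to 2.96 on the log2 scale.

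Macrophages of the splenic red pulp clear aged red cells and recycle their iron. Their development needs the ETS factor Spi-C, encoded by Spic, which haem induces, and they carry the adhesion molecule Vcam1 and the haem oxygenase Hmox1. Macrophages are the main source of C1q, the recognition part of the classical complement pathway, a hexamer of trimers built from the A, B and C chains of C1qa, C1qb and C1qc. Csf1r is the receptor for the macrophage growth factors Csf1 and Il34. Lyz2 (lysozyme M), Ctss (cathepsin S, which trims the class II invariant chain) and Cd68 (a lysosomal membrane glycoprotein) belong to the phagocytic machinery of many myeloid cells, and Cx3cr1, the fractalkine receptor, marks a subset of monocytes and tissue macrophages. Lyz1 (lysozyme P) is best known from Paneth cells of the intestine.

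C1qb, C1qc and C1qa lie side by side on chromosome 4 within 18719 bases (GRCm38), and Lyz2 and Lyz1 lie on chromosome 10 with 5522 bases between them. The upstream sequences of C1qb, C1qc, Lyz1 and Lyz2 are shown as those of neighbouring members whose values went together below, the lysozyme pair most closely of all pairs. The array signal of Lyz1 cannot be told apart from Lyz2, so how closely their RNAs went together is uncertain. The sequences are the 250 bases before the start used by the RefSeq promoter table, read 5′ to 3′ on the gene's strand, which is the minus strand for all 4 genes. For C1qc, whose record in the gene table begins further upstream, 22 of these bases lie inside that record, and for the other genes 0 do. In the C1q sequences, capitals mark GAGGAA, the core to which the macrophage factor PU.1 and its relative Spi-C can bind, or TTCCTC, the same core on the other strand.
C1qb, GRCm38, chr4:136886201-136886450: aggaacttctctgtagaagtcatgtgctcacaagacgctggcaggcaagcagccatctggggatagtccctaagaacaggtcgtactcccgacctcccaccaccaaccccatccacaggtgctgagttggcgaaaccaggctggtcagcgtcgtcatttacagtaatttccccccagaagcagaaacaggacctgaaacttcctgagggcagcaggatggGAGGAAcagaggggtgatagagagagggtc
C1qc, GRCm38, chr4:136892915-136893164: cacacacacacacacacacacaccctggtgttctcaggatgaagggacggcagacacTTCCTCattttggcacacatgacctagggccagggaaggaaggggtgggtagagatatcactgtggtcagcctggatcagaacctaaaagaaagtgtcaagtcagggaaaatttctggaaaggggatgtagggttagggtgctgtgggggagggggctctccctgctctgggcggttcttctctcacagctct
In the lysozyme sequences, capitals mark bases that differ from the other gene or have no partner in a global alignment.
Lyz1, GRCm38, chr10:117292869-117293118: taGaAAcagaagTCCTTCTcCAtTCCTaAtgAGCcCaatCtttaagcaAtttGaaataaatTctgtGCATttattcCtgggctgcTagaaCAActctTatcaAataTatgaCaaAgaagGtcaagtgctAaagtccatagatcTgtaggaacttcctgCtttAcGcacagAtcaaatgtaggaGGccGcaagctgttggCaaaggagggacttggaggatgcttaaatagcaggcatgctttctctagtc
Lyz2, GRCm38, chr10:117282273-117282522: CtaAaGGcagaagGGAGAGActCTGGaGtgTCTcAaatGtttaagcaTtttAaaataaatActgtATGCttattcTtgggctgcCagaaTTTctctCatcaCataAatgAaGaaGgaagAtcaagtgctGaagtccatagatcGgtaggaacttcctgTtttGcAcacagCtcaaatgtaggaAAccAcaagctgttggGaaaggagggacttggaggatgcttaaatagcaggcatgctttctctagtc
The lysozyme upstream sequences were identical at 200 of 252 aligned positions (79.4%), with the final stretch before the start the same in both, against 118 of 271 positions (43.5%) for C1qb and C1qc. The core began 30 bases before the start of C1qb and 193 bases before that of C1qc. It was present in 4 of 8 members with a listed upstream sequence (C1qb, C1qc, Cd68 and Ctss) and in 23.3% of all 32851 upstream sequences of this length. These matches are descriptions of letters, and no binding was measured.

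All 3 C1q chains were above the array floor in every spleen and varied over a moderate range. C1qa had a lowest value of 6.92, a median of 7.51 and a highest value of 9.10 over the 47 arrays, a 4.52-fold range (SD 0.53 log2 units). C1qb ran from 6.47 through a median of 7.36 to 8.46 (SD 0.45), and C1qc from 6.26 through 6.72 to 7.97 (SD 0.38). The same array, replicate 11 of the Erg insertion label in line 6070, was highest for all 3 chains. C1qa and C1qc shared 4 of their 5 highest arrays, and both had a gap below their 3 highest arrays, at 8.35 to 8.71 for C1qa and 7.27 to 7.61 for C1qc.

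The A and C chains followed each other most closely of the 3. C1qa and C1qc had r = 0.957 and Spearman's rho = 0.945 over 47 arrays (permutation p = 1e-05 for each, the smallest that 100000 resamples can give, and 1.92e-22 after adjustment over all 18178 tested genes in limma's slope test). With 2 arrays left out, those farthest from the C1qa median, r was 0.938, and it was 0.953 in line 6113 and 0.969 in line 6070. The difference between the 2 values had an SD of 0.20 across arrays, smaller than the SD of either gene. C1qb followed somewhat less closely, at r = 0.824 with C1qa (rho = 0.855) and r = 0.838 with C1qc (rho = 0.854), all with permutation p = 1e-05. Among C1qb's own probe sets, the second brightest had r = 0.77 with the brightest and the third 0.97, so the choice of probe set bears on this gap. With the second brightest in its place the correlation of C1qb with C1qa was 0.87.

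Spic, the red-pulp factor, was dim, with a lowest value of 5.25, a median of 6.00 and a highest value of 6.99 (SD 0.34), and 22 of 47 arrays were above log2 6. Such values lie near the floor of these arrays, where 25% of all values were below 5.08, so the range understates the change in RNA. Even so, Spic followed the C1q genes, at r = 0.756 with C1qa (rho = 0.792), 0.735 with C1qc (rho = 0.797) and 0.60 with C1qb (rho = 0.632), each with permutation p of at most 2e-05 for r. The highest array for Spic was replicate 16 of the Erg insertion label (line 6113), and the lowest, replicate 23 of the same label (line 6070), had the lowest Cd68 as well. That lowest array had a 3′ to 5′ control difference of 2.61, and Spic values fell as this difference rose (r = -0.382, rho = -0.212, given as a description). On the arrays with a difference below 2 the correlation of Spic with C1qa was 0.789.

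**Figure D1:**
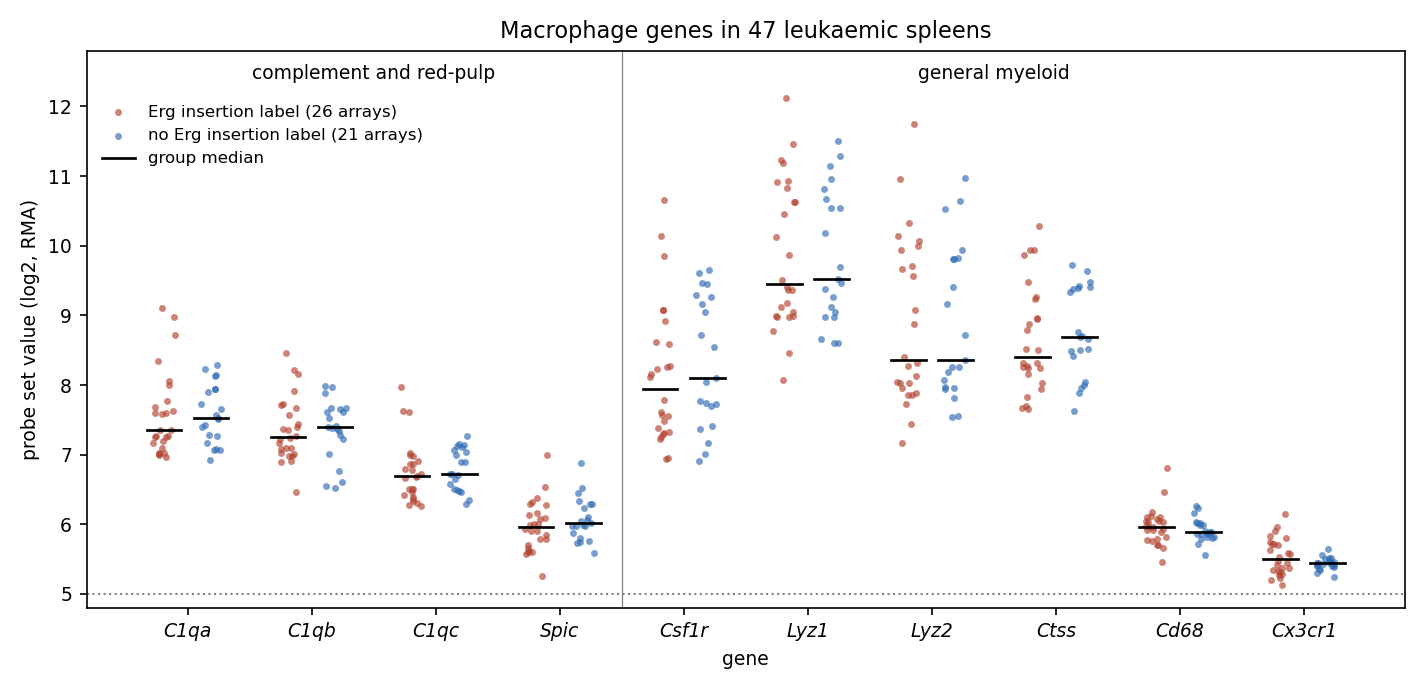
Probe set values (log2, RMA) of the 10 genes in 47 leukaemic spleens, with 26 arrays of the Erg insertion label left of 21 without it; each point is an array, black bars are group medians and the dotted line marks log2 5. Lyz2 spans 7.17 to 11.75 whereas Cx3cr1 stays between 5.12 and 6.15, and the 2 groups overlap for every gene.

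By their brightest probe sets, the general myeloid genes varied more than C1q, except Cd68 and Cx3cr1. Csf1r ran from 6.90 through a median of 8.10 to 10.66, a 13.5-fold range (SD 0.96). The dimmer Csf1r probe sets had ranges of 8.10-fold (SD 0.70) and 3.63-fold (SD 0.41), the latter below the 4.52-fold of C1qa. The comparison for Csf1r thus depends on the probe set. Lyz2 ran from 7.17 through 8.36 to 11.75, a 24.0-fold range and the widest of the 10 genes (SD 1.14). Ctss ran from 7.62 through 8.51 to 10.29, a 6.35-fold range (SD 0.71). These 3 genes were above log2 6 in all 47 spleens. Csf1r was highest in the array that was highest for C1q, Ctss in replicate 22 and Lyz2 in replicate 16, all 3 of the Erg insertion label.

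Csf1r, Lyz2 and Ctss formed a tight trio. The correlation of Csf1r with Ctss was 0.869 (rho = 0.856), that of Csf1r with Lyz2 was 0.855 (rho = 0.836) and that of Lyz2 with Ctss was 0.849 (rho = 0.812), with permutation p = 1e-05 for all of them. Within line 6113 the first pair had r = 0.924 and within line 6070 r = 0.826. Dropping the 2 most extreme arrays of the first gene left all 3 values at 0.84 or above.

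Lyz1 gave values from 8.07 through a median of 9.51 to 12.12 and had r = 0.989 with Lyz2 (rho = 0.981). Lyz1 has 3 probe sets on the array, and the bright pair are of the kind whose probes can also bind related transcripts. Both of these had r = 0.99 with Lyz2. The third, of the kind whose probes are unique to their target, stayed between 4.92 and 5.25 in every spleen and was above log2 6 in 0 arrays, with r = 0.74 against the bright Lyz1 probe set. Lyz1 and Lyz2 are closely related neighbours, so how much of the bright signal is Lyz1 RNA cannot be told apart from Lyz2, and the Lyz1 values are uncertain. Leaving Lyz1 out moved the median correlation among the general myeloid genes to 0.347, against 0.388 with it.

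Cd68 and Cx3cr1 stood aside. Cd68 was dim, at 5.45 to 6.80 with a median of 5.92 (SD 0.22), above log2 6 in 17 arrays and above log2 7 in 0. Cx3cr1 ran from 5.12 through 5.44 to 6.15 (SD 0.21), and 1 array exceeded log2 6. The 2 Cx3cr1 probe sets had r = 0.46 with each other, and the dimmer one stayed between 5.02 and 5.22. At such levels the array could hardly resolve differences in Cx3cr1 RNA, and its weak correlations cannot be read as independence.

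The members' mutual relations were read from the slope of every tested gene on each member in turn, where a pair was called when both slopes were positive with an adjusted p below 0.05 over all tested genes. Of the 45 pairs, 31 were called and 0 had a negative r, and the median r was 0.65. All 6 pairs among C1qa, C1qb, C1qc and Spic were called, with a median r of 0.79 (0.60 to 0.957). Of the 15 pairs among the general myeloid genes 6 were called, with a median r of 0.388 (0.047 to 0.989), namely the pairs among Csf1r, Lyz1, Lyz2 and Ctss. Between the sets 19 of 24 pairs were called, with a median r of 0.649 (0.052 to 0.871). The low median of the general set thus lay with Cd68 and Cx3cr1, which called no partner within it.

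**Figure D2:**
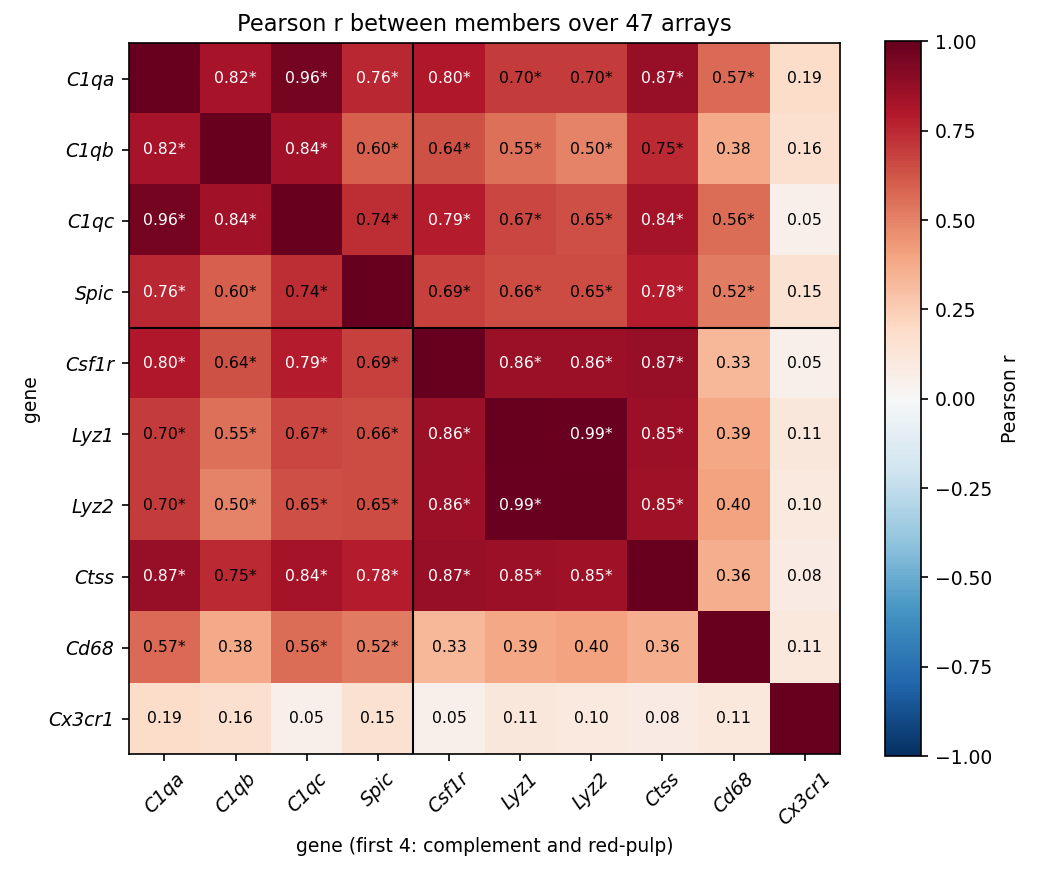
Pearson r between the 10 genes over 47 arrays, with black lines between the 4 complement and red-pulp genes and the 6 general myeloid genes; an asterisk marks a called pair. C1qa with C1qc (0.96) and Lyz1 with Lyz2 (0.99) are the highest values, Ctss is high in both blocks, and the Cx3cr1 row holds no called pair. The Lyz1 signal cannot be told apart from Lyz2.

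These counts stand against a background in which many genes moved together. The share of all genes that rose with C1qa was 11.3%, with C1qb 5.73%, with C1qc 10.4% and with Spic 11.9%. For the general set the share was 14.7% for Csf1r, 14.9% for Lyz1, 14.7% for Lyz2, 14.2% for Ctss, 1.25% for Cd68 and 0.044% for Cx3cr1. Another 11.5% of genes fell with C1qa and 20.9% fell with Lyz2. Against these shares C1qa, C1qc and Spic called 8 of 9 partners, C1qb, Csf1r, Lyz1, Lyz2 and Ctss 7 of 9, Cd68 3 of 9 and Cx3cr1 0 of 9. The median r of a member with all tested genes lay between -0.112 for Spic and 0.026 for Cx3cr1. For C1qa 5.22% of all genes and 8 of the 9 other members had r of at least 0.5, and for Cx3cr1 0.242% of all genes and 0 members.

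The division into 2 sets was not sharp, and Ctss crossed it. Ctss had r = 0.871 with C1qa (rho = 0.876), 0.836 with C1qc, 0.783 with Spic and 0.748 with C1qb, beside values of 0.849 to 0.869 with Csf1r, Lyz1 and Lyz2. Its strongest partner was C1qa, and Ctss was the strongest partner of Spic. Csf1r also reached 0.798 with C1qa and 0.786 with C1qc. Lyz2 was further from the complement genes, at r = 0.697 with C1qa (rho = 0.687), 0.647 with C1qc (rho = 0.677) and 0.499 with C1qb (rho = 0.483). For C1qa and Lyz2, r was 0.82 within line 6113 and 0.553 within line 6070, where the pair was not called on 26 arrays, and the difference between lines was not tested.

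The 3 pairs called for Cd68 were with C1qa (r = 0.568, rho = 0.405, adjusted p of the Cd68 slope 0.000595), C1qc (r = 0.557, rho = 0.388) and Spic (r = 0.519, rho = 0.34). The first rested on few arrays. Without the 2 arrays with the most C1qa, which were also the 2 highest for Cd68, the correlation of C1qa with Cd68 was 0.319, and among the 21 arrays without the Erg insertion label it was 0.045. With the 2 most extreme arrays of the first gene left out, r was 0.487 for C1qc with Cd68 and 0.352 for Cd68 with Spic. Cd68 also fell as the 3′ to 5′ control difference rose (r = -0.383, rho = -0.381, as a description), and the part of RNA quality in its pairs was not tested.

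**Figure D3:**
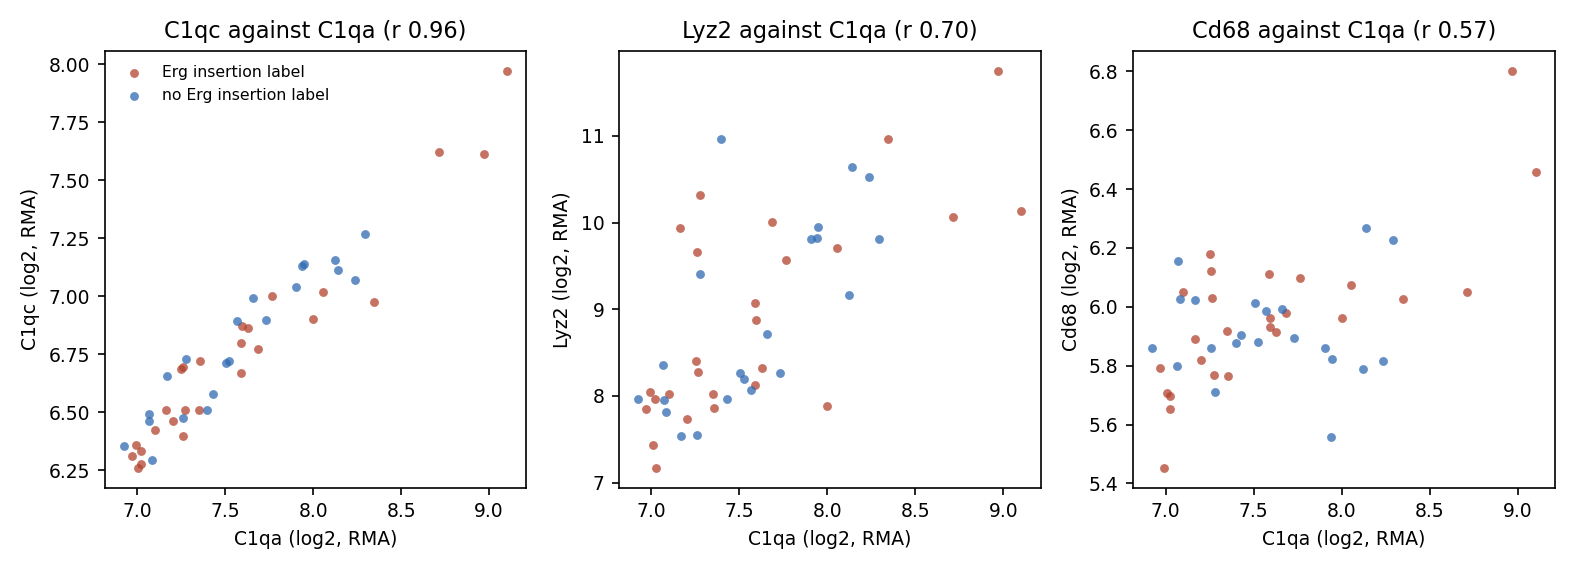
C1qc, Lyz2 and Cd68 against C1qa (all log2, RMA), 1 point per array, in the colours of the Erg labels. C1qc follows a narrow line (r 0.96), Lyz2 a wide band (r 0.70), and the relation of Cd68 (r 0.57) leans on 2 arrays at the upper right.

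To set complement against general myeloid variation, every gene was fitted on C1qa and Lyz2 together, so that each slope is the change in a gene per log2 unit of one at a fixed value of the other. This fit was added after the correlations were seen. At fixed Lyz2, 0.501% of all genes (91) rose with C1qa and 0.022% (4) fell. At fixed C1qa, 8.65% (1572) rose with Lyz2 and 12.3% (2235) fell. Because p was adjusted separately for each slope and fewer genes followed C1qa, a C1qa slope needed a smaller unadjusted p to be called. Counts for C1qa and for Lyz2 are therefore not on one scale. These counts depended on the arrays and on the C1q gene used. In line 6113 there were 1 and 2 genes rising and falling with C1qa, and 25 and 2 with Lyz2. In line 6070 there were 40 and 0 with C1qa, and 1273 and 1796 with Lyz2. With C1qb in place of C1qa, 119 genes rose and 61 fell with C1qb. Without the 2 arrays with the most C1qa 38 genes rose with C1qa, and without the 2 with the most Lyz2 60 did.

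C1qb and C1qc rose with C1qa at fixed Lyz2. The C1qa slope was 0.70 ± 0.04 for C1qc (SE, adjusted p = 1.16e-16) and 0.79 ± 0.10 for C1qb (adjusted p = 1.29e-06), with Lyz2 slopes of -0.01 and -0.06 (adjusted p = 0.725 and 0.418). With C1qb in place of C1qa, C1qc rose with Lyz2 as well (Lyz2 slope 0.10 ± 0.03, adjusted p = 0.00335), as did Spic (0.14 ± 0.04, adjusted p = 0.00189). In the fit on C1qa and Lyz2, Spic had a C1qa slope of 0.38 ± 0.08 (adjusted p = 0.0172) and a Lyz2 slope of 0.07 ± 0.04 (adjusted p = 0.208). Its call was lost in line 6113 (slope 0.68, adjusted p = 0.137), in line 6070 (slope 0.25, adjusted p = 0.673), in the 33 arrays with the tumour identifier number 9 (slope 0.38, adjusted p = 0.0558), without the 2 arrays with the most Lyz2 (slope 0.35, adjusted p = 0.0778) and with C1qb in place of C1qa (slope 0.28, adjusted p = 0.128). It was kept with C1qc in place of C1qa (adjusted p = 0.024) and without the 2 arrays with the most C1qa (adjusted p = 0.0158).

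Ctss and Csf1r rose with both. Ctss had slopes of 0.73 ± 0.10 on C1qa (adjusted p = 8.68e-06) and 0.29 ± 0.05 on Lyz2 (adjusted p = 8.97e-06). The slopes of Csf1r were 0.72 ± 0.16 on C1qa (adjusted p = 0.0236) and 0.49 ± 0.08 on Lyz2 (adjusted p = 7.21e-06). Its C1qa call was lost in line 6113 (slope 0.98, adjusted p = 0.596), in line 6070 (slope 0.65, adjusted p = 0.334), without the 2 arrays with the most C1qa (slope 0.60, adjusted p = 0.229) and with C1qb in place of C1qa (slope 0.61, adjusted p = 0.0626). The bright Lyz1 probe set rose with Lyz2 alone, at 0.86 ± 0.03 (adjusted p = 5.92e-29), against 0.05 ± 0.06 on C1qa. Its signal cannot be told apart from Lyz2, so these slopes are not a result about Lyz1 RNA. Neither slope passed for Cd68 (0.24 ± 0.07 on C1qa, adjusted p = 0.176) or for Cx3cr1 (0.09 ± 0.08, adjusted p = 0.907). Within line 6113, among members, the C1qa slope of C1qc passed (adjusted p = 8.2e-06), and those of C1qb (slope 0.81, adjusted p = 0.137) and Ctss (slope 0.59, adjusted p = 0.622) did not.

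**Figure D4:**
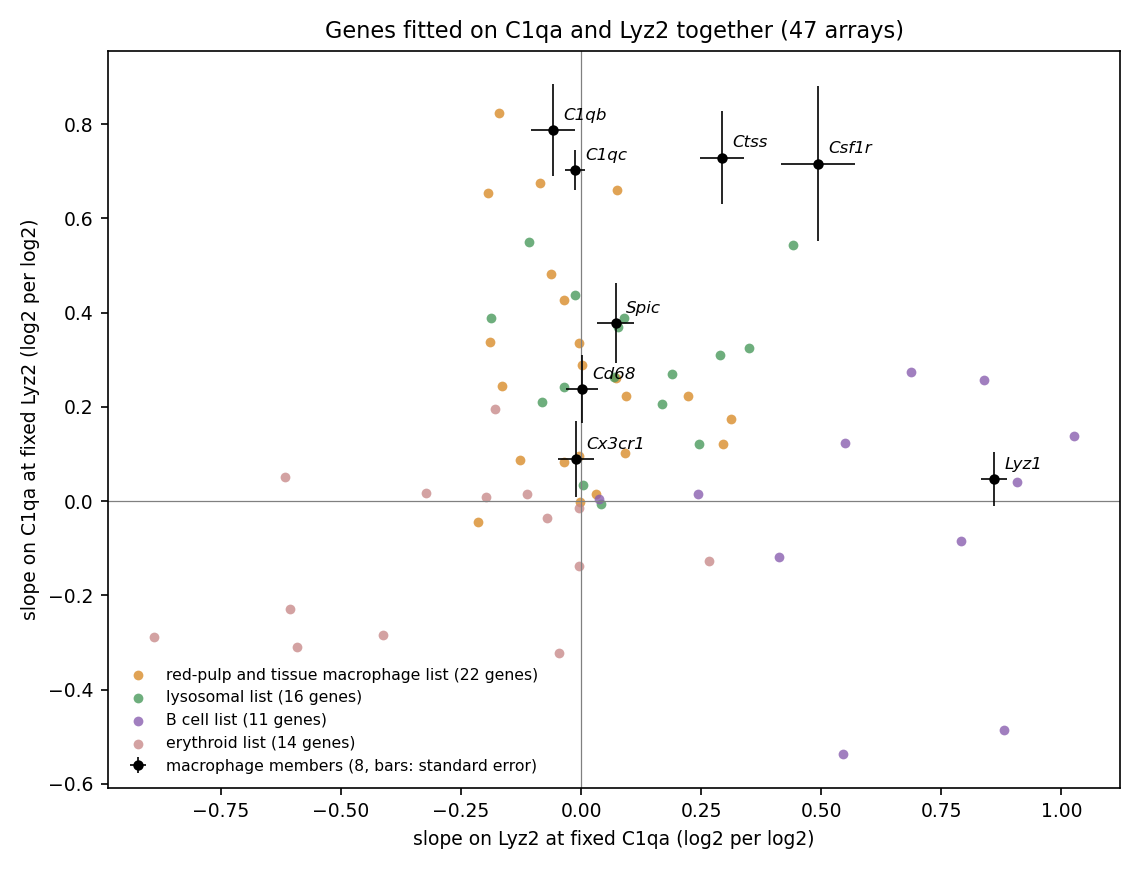
Slope on C1qa at fixed Lyz2 (vertical) against slope on Lyz2 at fixed C1qa (horizontal), in log2 units per log2 unit over 47 arrays, for 8 members with standard errors and for 4 gene lists. C1qb and C1qc lie close to the vertical axis, Lyz1 lies far to the right, Ctss and Csf1r lie between, and red-pulp genes sit mostly above 0 whereas B cell genes lie to the right.

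Genes of red-pulp and other tissue macrophages followed C1qa in part. Of 22 listed genes, 14 rose with C1qa and 0 fell, and with Lyz2 9 rose and 3 fell. The median r was 0.514 with C1qa and 0.282 with Lyz2, against -0.079 and -0.106 over all tested genes. For this list and those below, the shares of all tested genes were 11.3% rising with C1qa and 14.7% rising with Lyz2. Those falling were 11.5% and 20.9%. In the fit on C1qa and Lyz2 together, 0.501% rose and 0.022% fell with C1qa, and 8.65% rose and 12.3% fell with Lyz2. At fixed Lyz2, 6 of the 22 rose with C1qa. These were Vcam1 (slope 0.66 ± 0.12, adjusted p = 0.00134), Slc11a1, the phagosomal metal transporter (0.29 ± 0.04, adjusted p = 0.000134), Mrc1, the mannose receptor (0.65 ± 0.13, adjusted p = 0.00426), the lipid carrier Apoe (0.82 ± 0.17, adjusted p = 0.00978), Hmox1 (0.48 ± 0.11, adjusted p = 0.0137) and Cd163, the haemoglobin scavenger receptor (0.34 ± 0.08, adjusted p = 0.0258). Mrc1 and Cd163 fell with Lyz2 at fixed C1qa (slopes -0.19 and -0.19, adjusted p = 0.0147 and 0.00015). Cd163 was dim, with a highest value of 6.06.

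Genes of the red-pulp list differed in level and did not all move with C1q. Of the 22 listed genes, 11 had a median above log2 6. Vcam1 lay between 7.65 and 9.63 and the iron exporter Slc40a1 between 6.77 and 8.61, so both were above log2 6 in all 47 spleens. Adgre1 had a median of 6.06, with 28 arrays above log2 6, and r = 0.12 with C1qa. Slc40a1 had r = -0.004 with C1qa and Cd5l, a secreted macrophage protein, r = -0.342, and neither passed the slope test on C1qa. Treml4, a receptor of red-pulp macrophages, was the gene most like Spic (r = 0.832, rho = 0.803). It was dim too, with a median of 5.76 and 12 arrays above log2 6. Siglec1, Folr2 and Vsig4, genes of other macrophage subsets, did not exceed log2 6 in any array.

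Of the complement pathway, 9 of 16 genes rose with C1qa and 2 fell, and with Lyz2 10 rose and 3 fell. At fixed Lyz2 only Serping1, the C1 inhibitor (slope 0.64 ± 0.09, adjusted p = 2.66e-05), and Cfp, the alternative pathway activator properdin (0.37 ± 0.06, adjusted p = 0.000654), passed. At fixed C1qa, 6 of the 16 rose with Lyz2, Cfp among them (0.19 ± 0.03, adjusted p = 8.31e-06), and 3 fell. C1ra and C1s1, which encode the proteases that C1q carries, had slopes of 0.16 ± 0.04 and 0.20 ± 0.06 (adjusted p = 0.0939 and 0.154). Cr1l and Cd59a, which restrain complement on the cell's own surface, had the lowest correlations with the mean of the 3 C1q genes, at -0.498 and -0.472.

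Of the lysosomal list 12 of 16 genes rose with C1qa and 0 fell, and with Lyz2 10 rose and 0 fell. Lgmn (legumain, slope 0.55 ± 0.07, adjusted p = 8.04e-07), Ctsb (0.37 ± 0.07, adjusted p = 0.00475) and Ctsa (0.27 ± 0.06, adjusted p = 0.0248) rose with C1qa at fixed Lyz2. At fixed C1qa, 6 of the 16 rose with Lyz2, Ctsa among them (0.19 ± 0.03, adjusted p = 5.98e-06), and 1 fell. Lgmn had r = 0.732 with C1qa and 0.286 with Lyz2, and it fell with Lyz2 at fixed C1qa (slope -0.11 ± 0.03, adjusted p = 0.00914). Ctsl and Ctsd had the lowest correlations with the C1q mean, at 0.065 and 0.186.

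Among regulators and ligands, 8 of 14 rose with C1qa and 9 with Lyz2. The MiT family factors Mitf (slope 0.13 ± 0.02, adjusted p = 0.00236) and Tfec (0.24 ± 0.06, adjusted p = 0.0356) and the Csf1r ligand Il34 (0.07 ± 0.02, adjusted p = 0.0439) rose with C1qa at fixed Lyz2. All 3 were near the floor, with medians of 5.45, 5.35 and 5.18. Mitf and Tfec also rose with Lyz2 at fixed C1qa (0.05 ± 0.01 and 0.09 ± 0.03, adjusted p = 0.000419 and 0.0155). Irf8 (0.35 ± 0.06), Csf1 (0.19 ± 0.05) and Spi1, which encodes PU.1 (0.14 ± 0.03), rose with Lyz2 at fixed C1qa (adjusted p = 3.06e-05, 0.00268 and 0.00162), and their C1qa slopes did not pass. Of 25 further monocyte and general myeloid genes, 5 rose with C1qa at fixed Lyz2 (Aif1, Ms4a7, Ms4a6c, Fcgr4 and Mpeg1) and 14 rose with Lyz2 at fixed C1qa. Aif1, Ms4a6c and Mpeg1 did both.

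Outside the gene lists, the genes with the smallest adjusted p for C1qa at fixed Lyz2 were Asah1, the lysosomal acid ceramidase (slope 0.40 ± 0.05, adjusted p = 3.25e-06), the nucleotide receptor P2ry6 (0.26 ± 0.04, adjusted p = 0.000308), Cp, the ferroxidase ceruloplasmin (0.59 ± 0.10, adjusted p = 0.000331) and Pla2g7, a secreted phospholipase (0.54 ± 0.09, adjusted p = 0.000438). They were picked after their values were seen, and Asah1 and Cp also rose with Lyz2 at fixed C1qa (adjusted p = 0.000915 and 0.000112). The 4 genes that fell were the DNA replication genes Mcm10 (-0.25 ± 0.06, adjusted p = 0.0356) and Mcm5 (-0.28 ± 0.07, adjusted p = 0.0483), together with Sema4g (adjusted p = 0.0458) and Zcchc12 (adjusted p = 0.0144). Without the 2 arrays with the most C1qa, 38 genes rose and 2 fell.

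Genes of several other cell types moved with these genes as well. Of 14 erythroid genes 8 fell with C1qa and 8 fell with Lyz2, and 7 fell with Lyz2 at fixed C1qa, among them Klf1, the erythroid transcription factor (slope -0.61 ± 0.12, adjusted p = 0.000332), whereas 0 did so with C1qa at fixed Lyz2. Of 11 B cell genes 8 rose with C1qa and 11 with Lyz2, and 10 rose with Lyz2 at fixed C1qa against 0 with C1qa at fixed Lyz2. For 12 class II and dendritic cell genes these joint counts were 6 and 0, and for 14 neutrophil genes 2 and 0. Of all tested genes, 11.5% fell with C1qa and 20.9% with Lyz2, while 11.3% and 14.7% rose. At fixed C1qa 12.3% fell and 8.65% rose with Lyz2, and the neutrophil count lay near the latter share. Counts of 0 for C1qa rest on its stricter call. Batf3, with a C1qa slope of 0.14 ± 0.05 (adjusted p = 0.223), was not called. Itgax, with a Lyz2 slope of 0.06 ± 0.02 (adjusted p = 0.0242), was. The mean of the standardised erythroid list had r = -0.449 with C1qa and -0.564 with Lyz2, and that of the B cell list 0.457 and 0.681, given as descriptions. The main axis of variation of the arrays, which held 35.7% of the variance, had r = -0.639 with C1qa and -0.878 with Lyz2. The part of these cell types in the members' correlations was not tested beyond the following values. With the erythroid mean held constant, the correlation of C1qa with C1qc was 0.948 and that of C1qa with Lyz2 0.602. With the main axis held constant they were 0.927 and 0.37, and that of Csf1r with Lyz2 was 0.377.

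Outside the members, each gene had closest companions, ranked by r over 47 arrays. C1qa was followed by Asah1 (0.882), Aif1 (0.865), Cp (0.848), Cfp (0.84) and Rab20 (0.83). C1qc shared Aif1 and Cp with it, and was closest to Plbd1 (0.848), Slc11a1 (0.82) and Serping1 (0.816). C1qb was closest to Cd300c2 (0.815), Fcer1g (0.755), Serping1 (0.755), Vcam1 (0.746) and Cd300a (0.742). Spic was closest to Treml4, Cd302 (0.829), Gbp3 (0.818), Cfp (0.806) and Tlr4 (0.803).

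Among the general set, Csf1r was closest to Acp5, the tartrate-resistant acid phosphatase (0.929), Psap, the saposin precursor (0.92), Clec4n, which encodes dectin-2 (0.911), Sgpl1 (0.906) and Pla2g15 (0.904). Lyz2 was closest to Sgpl1 (0.913), Sting1 (0.912), Pla2g2d (0.895), Nfkbie (0.894) and Hpse (0.892). Lyz1 shared Sgpl1, Sting1, Nfkbie and Hpse with Lyz2, and Clec4n (0.892) led its list. Ctss stood nearest to Aif1 (0.915), a companion of C1qa and C1qc too, and then to Ms4a6c (0.897), Hpse (0.885), Epsti1 (0.88) and Clec4n (0.88). For Cd68 the closest were Igf1 (0.736), Tax1bp3 (0.697), Atox1 (0.68), Ms4a7 (0.672) and Dera (0.671), and for Cx3cr1 Card19 (0.681), Pla2g4a (0.672), Rnasek (0.629), Cd9 (0.6) and Cited2 (0.587). The companions of Cd68 and Cx3cr1 were weaker than those of any other member.

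None of the 10 genes passed the test for any label. The share of all genes called was 0% for the Erg insertion label, 0% for the line label, 0% for the sex label, 0% for the age label, 0% for the interaction of Erg with line and 0% for that of Erg with sex, in limma fits over 18178 genes. With an unadjusted p below 0.05 there were 666 genes for Erg, 540 for line, 460 for sex, 688 for age, 1286 for the interaction with line and 1079 for that with sex. Xist was among the tested genes and did not pass for the sex label. The pairing of labels and arrays is therefore in doubt, and a lack of calls for any label cannot be read as a lack of difference.

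C1qa ran from 6.97 through a median of 7.35 to 9.10 in the 26 arrays with the Erg insertion label and from 6.92 through 7.52 to 8.29 in the 21 without it. The groups overlapped over nearly their whole range. The group means were 7.59 ± 0.61 with and 7.58 ± 0.42 without the label (SD), and the difference adjusted for line and sex was 0.06 ± 0.16 (SE, adjusted p = 0.999, permutation p of the raw difference 0.978). Lyz2 averaged 8.89 ± 1.20 with the label and 8.89 ± 1.09 without it, an adjusted difference of 0.10 ± 0.34 (permutation p = 0.998). Csf1r averaged 8.14 ± 1.00 with the label and 8.34 ± 0.94 without it, with an adjusted difference of -0.15 ± 0.29 (permutation p = 0.477), and Spic 5.98 ± 0.36 with the label and 6.08 ± 0.31 without it, with an adjusted difference of -0.06 ± 0.10 (permutation p = 0.322).

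The member with the smallest p was Cx3cr1, at 5.54 ± 0.26 with the Erg insertion label and 5.44 ± 0.09 without it. The adjusted difference was 0.12 ± 0.06 (unadjusted p = 0.0571 and adjusted p = 0.999 in limma, permutation p = 0.0928), and 14 of 26 labelled arrays lay above the median of the others. The highest values of C1qa, C1qb, C1qc, Csf1r, Lyz1, Lyz2, Ctss, Cd68, Spic and Cx3cr1 all fell in arrays with the Erg insertion label, in replicates 11, 16 and 22. The lowest values of C1qb, C1qc, Lyz1, Lyz2, Cd68, Spic and Cx3cr1 also fell in arrays of this label, which held 26 of the 47 arrays. In the 23 arrays with no such contradiction of the sex label all 10 Erg differences were above 0 and 0 were called (adjusted p = 1 for each in limma). The share of all tested genes above 0 in these arrays is not given here. Most members moved together, so these signs are not separate observations. There the difference was 0.56 ± 0.49 for Lyz2, 0.51 ± 0.44 for Csf1r, 0.23 ± 0.25 for C1qa, 0.24 ± 0.31 for Ctss, 0.02 ± 0.17 for Spic and 0.02 ± 0.08 for Cx3cr1. The signs of C1qc (0.14), Csf1r, Ctss and Spic were opposite to those over all arrays.

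Line 6113 gave the higher adjusted value for all 10 genes, against 45.4% of all tested genes, without passing for any of them. Most members moved together, so these signs are not separate observations. All 21 arrays of line 6113 had the tumour identifier number 9, and those with numbers 7 (n = 11) and 8 (n = 3) were of line 6070. Line and this number can therefore not be fully told apart. Over both lines, Lyz2 averaged 9.04 with number 9, 8.98 with number 8 and 8.42 with number 7. Lyz2 averaged 9.15 ± 1.24 in line 6113 (n = 21) and 8.68 ± 1.02 in line 6070 (n = 26), an adjusted difference of 0.50 ± 0.34 (adjusted p = 0.999 in limma). For C1qa the adjusted difference between line 6113 and line 6070 was 0.21 ± 0.16, and for Spic 0.17 ± 0.10. Between mice labelled female and mice labelled male, C1qb differed by 0.25 ± 0.13 (unadjusted p = 0.0615, adjusted p = 1 in limma), a comparison that rests on the doubtful sex labels. The C1q genes had the smallest p for age, with slopes per unit of the age label of 0.013 ± 0.006 for C1qa, 0.010 ± 0.005 for C1qb and 0.011 ± 0.004 for C1qc (unadjusted p = 0.0252, 0.0368 and 0.0155, adjusted p = 1 for each in limma). For Lyz2 the age slope was 0.002 ± 0.013. In the 23 matching arrays 0 members passed for line, sex or age, the smallest adjusted p being 0.919. There the difference between lines was 0.29 ± 0.49 for Lyz2, 0.16 ± 0.25 for C1qa and 0.23 ± 0.17 for Spic, and for C1qb it was -0.07, the 1 member lower in line 6113. C1qb there differed by 0.10 ± 0.21 between mice labelled female and mice labelled male. The age slopes there were 0.023 ± 0.011 for C1qa, 0.022 ± 0.009 for C1qb, 0.017 ± 0.008 for C1qc and 0.016 ± 0.024 for Lyz2. No interaction passed for a member, the smallest adjusted p being 0.733 for Cx3cr1 with line.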

How the data were processed

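RNA of 47 leukaemic spleens was labelled with a 3′ in vitro transcription kit and hybridised to arrays, per the labels' protocols. The authors deposited log2 values computed by RMA, with affy under R 2.15 according to the submitters' processing notes. RMA removes background, forces a common distribution on the arrays and combines the probes of a set. The deposited table held 45101 probe sets, 64 of them controls, with values of 4.78 to 12.99, array medians of 5.19 to 5.24 and 0 missing values.

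The platform annotation named 1 gene for 34945 probe sets, several for 932 and none for 9160. The brightest single-gene probe set per gene gave 18193 genes, of which 18178 exceeded log2 5 on 9 or more arrays and entered the tests, all 10 members included. Levels were not compared between genes, since probe sets differ in response. Upstream sequences are from RefSeq (GRCm38.p6), and 8 members had one that was searched.

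Tests used limma 3.58.1 under R 4.3.3, with p-values adjusted by Benjamini-Hochberg across the 18178 genes and called below 0.05, and two-sided permutation tests with 100000 resamples (scipy 1.17.1). The Erg, line and sex labels were fitted together, and age with all of them. Fits were tested on simulated data. The members and 14 further gene lists were chosen with earlier results of these data known, so no list is independent evidence. Named genes were the members, the 5 genes most like each, and the 3 highest and 2 lowest of each list against the C1q mean, of which only some are printed; genes named from the joint fit on C1qa and Lyz2 were chosen after their values were seen. Arrays are separate mice, and their number limits the precision.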

Additional observations from a re-analysis of the deposited data

Results flagged for a closer look

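Cd68 in line 6113 with the Erg insertion label had a highest value of 6.80 among 9 arrays, and the nearest other array was at 6.07. This array, replicate 16, stood far from the others by Dixon's test, in 1 of 20 groups examined, and chance marks about 1 in 20. It also held the highest Lyz1, Lyz2, Spic and Cx3cr1 of all 47 arrays, and had the smallest 3′ to 5′ control difference, 0.65. The part of RNA quality in these values was not tested.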

How the results depend on the processing

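Under alternative settings, 79 values of the main comparisons stayed near those reported and 24 moved; the cause was not tested. The median r among general myeloid genes (0.388) was 0.511 in line 6113, 0.234 in line 6070, 0.643 with and 0.204 without the Erg insertion label, 0.187 without the 2 arrays with the most C1qa and 0.179 with the erythroid mean held constant. With the main axis held constant the median r was 0.685 among complement and red-pulp genes and 0.369 between the sets. Called pairs numbered 31, against 20 without the Erg insertion label, 17 with the main axis in the fit and 33 by rank correlation with unadjusted permutation p. On arrays whose sex label matched their Xist, 1 gene passed for line and 6 for sex. Those arrays were chosen by Xist, so calls of sex-linked genes for sex there were fixed in advance. Genes rising with C1qa at fixed Lyz2 (91) numbered 1 in line 6113, 40 in line 6070, 38 without the 2 arrays with the most C1qa and 60 without the 2 with the most Lyz2. Genes falling (4) numbered 1 with C1qc, 61 with C1qb, 2 in line 6113, 0 in line 6070, 11 with tumour identifier number 9 and 2 without the 2 arrays with the most C1qa. In line 6113, 25 genes rose and 2 fell with Lyz2 at fixed C1qa, against 1273 and 1796 in line 6070. Erg differences of members changed sign in 19 of 98 values, and 0 were called. No paired analysis was possible because the numbers in the titles only name mice. Dim genes such as Cx3cr1 lie near the floor, which limits their correlations.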
